A study of Caenorhabditis elegans with 12 samples.

Results

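The genes described here are the stress-inducible cytosolic chaperones of Caenorhabditis elegans and the factor that switches them on, read in whole-worm RNA sequencing. They were chosen by gene identifier, 10 of the 46589 genes in the count files, with no use of measured values. They are 6 small heat shock protein genes (hsp-16.1, hsp-16.11, hsp-16.48, hsp-16.49, hsp-16.2 and hsp-16.41), 3 genes of the inducible HSP70 type (hsp-70, F44E5.4 and F44E5.5) and hsf-1. All 10 had an entry in the counts of all 12 libraries, though hsp-16.1, hsp-16.48, hsp-16.11 and hsp-16.49 had 0 counts in some. Of the 10, 9 passed the filter on low counts and hsp-16.1 did not. The filter left 15245 genes to test.

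Small heat shock proteins bind unfolding proteins without using ATP and keep them from clumping, and HSP70 chaperones use ATP to refold such clients or pass them on for degradation. In an unstressed worm the hsp-16 genes and hsp-70 are nearly silent. Heat or other protein damage activates HSF-1, the heat shock transcription factor, which binds their promoters and raises their transcripts steeply, and for this reason hsp-16.2 is widely used as a reporter of stress in living worms. HSF-1 is itself regulated mostly as a protein, so the level of its transcript is a poor guide to its activity.

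Each library held RNA of about 5000 synchronised worms at day 1 of adulthood, collected from 3 plates per strain. The 12 libraries crossed 4 backgrounds with 3 tau states, with 1 library for each combination. The backgrounds were the wild type N2 and an ung-1 mutant, both grown at 22 °C, and N2 and an nth-1 mutant, both grown at 20 °C. UNG-1 cuts uracil and NTH-1 oxidised pyrimidines out of DNA, so each begins base excision repair. The tau states were no tau, tau aggregate (strain BR5270, whose neurons make a fragment of human tau prone to aggregate) and anti-tau aggregate (strain BR5271, whose neurons make a form of that fragment that resists aggregation). Below, the libraries without a mutation in a glycosylase gene, with or without tau, are called the N2-background libraries, and the others the mutant libraries. Both transgenes act in neurons while the RNA came from the whole animal. In such bulk samples fewer cells of a type and less RNA per cell cannot be told apart.

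Effects of ung-1 were measured only at 22 °C and those of nth-1 only at 20 °C, in separate sets of libraries, so mutated gene, temperature and library set cannot be told apart. Library totals ran from 15124127 to 35204808 counts. Levels are CPM (counts for every 1e6 counts of the library) after TMM scaling, a correction for library composition, and their intervals are exact 95% intervals that cover counting error only. The mutated genes were read first. The ung-1 transcript stood at 11.8 to 14.5 CPM in the 3 ung-1 libraries and at 39.9 to 46.6 CPM in the matching N2-background libraries. The nth-1 transcript stood at 5.06 CPM in nth-1 and 5.08 CPM in nth-1 with aggregate tau, and at 22.96 to 26.75 CPM in the N2-background libraries at 20 °C. The anti-aggregate library labelled nth-1 held 11.35 CPM, between the mutant and the N2 levels, and so went partly against its label. Titles of the 3 nth-1 libraries name ung-1, while their genotype label names nth-1, which was followed. The ung-1 transcript stood at 27.0, 28.0 and 49.6 CPM in nth-1, nth-1 with aggregate and with anti-aggregate tau, and at 37.7 to 62.3 CPM in the N2-background libraries at 20 °C, so the first pair lay below that range too. The comparisons of the mutants with N2 are given with and without the anti-aggregate library labelled nth-1, and single levels and folds name the library they come from.

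The 4 genes hsp-16.1 (T27E4.8; chromosome V, 9087293 to 9087782, minus strand), hsp-16.48 (T27E4.3; V, 9088131 to 9088617, plus strand), hsp-16.49 (T27E4.9; V, 9089280 to 9089766, minus strand) and hsp-16.11 (T27E4.2; V, 9090077 to 9090604, plus strand) form a cluster of inverted repeats. hsp-16.1 and hsp-16.11 are near-identical copies, as are hsp-16.48 and hsp-16.49, so the split of reads within each pair is uncertain. The pair hsp-16.2 (Y46H3A.3; V, 1804334 to 1804957, minus strand) and hsp-16.41 (Y46H3A.2; V, 1805178 to 1805875, plus strand) lies elsewhere on the same chromosome, with 220 bases between the 2 divergent genes. hsp-70 (C12C8.1; I, 9320325 to 9322519, minus strand) overlaps uggt-2 on the opposite strand; without a stated use of strand, reads of the overlap cannot be told apart. uggt-2 had 1041 counts over the 12 libraries and hsp-70 had 5660. In the N2-background libraries hsp-70 had only 14 counts (N2 at 22 °C) to 124 counts (aggregate tau at 22 °C). How the uggt-2 counts fell by library is not given here. F44E5.4 (II, 11757107 to 11759311, minus strand) and F44E5.5 (II, 11759662 to 11761861, plus strand) are a divergent pair of near-identical genes with 350 bases between them. hsf-1 (Y53C10A.12) spans I, 11953507 to 11963085, on the minus strand. Coordinates are those of the whole gene, exons, introns and untranslated regions included, on the WBcel235 build.

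The first comparison asked how these genes behave in worms that lack a DNA glycosylase. Transcripts of hsp-16.2, hsp-16.41, hsp-70, F44E5.4 and F44E5.5 stood higher in every mutant library than in any of the 6 N2-background libraries, at both temperatures and in all 3 tau states. The levels were low to moderate: the 9 chaperone genes together took 24.2 to 236 CPM in the mutant libraries and 1.93 to 12.9 CPM in the N2-background ones. The transcript of hsf-1 did not share the pattern. No member passed the edgeR test after adjustment over all genes.

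For hsp-16.2 at 22 °C, the level was 0.575 CPM in N2, 2.43 with aggregate tau and 1.53 with anti-aggregate tau, against 5.83, 10.8 and 16.15 CPM in the matching ung-1 libraries. At 20 °C it was 1.575, 1.004 and 1.46 CPM on the N2 background, against 41.8, 20.1 and 12.97 CPM with nth-1 mutated, tau states in that same order. The lowest mutant library, ung-1 without tau, thus lay above the highest N2-background library, aggregate tau at 22 °C, and nth-1 without tau lay above all others. The fold over the matching N2-background library was 10.1 (95% counting interval 5.91 to 18.9) in ung-1, 4.44 (3.29 to 6.08) with aggregate tau and 10.55 (7.35 to 15.6) with anti-aggregate tau. In the nth-1 pairs it was 26.5 (19.3 to 37.4), 20.01 (from 324 against 17 counts) and 8.87 (5.84 to 14.1).

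Its divergent neighbour hsp-16.41 went with it. At 22 °C hsp-16.41 stood at 0.205, 1.94 and 1.995 CPM in N2 without tau, with aggregate and with anti-aggregate tau, and at 4.05, 7.33 and 15.2 CPM in the matching ung-1 libraries. At 20 °C the values were 1.22, 0.827 and 1.71 CPM on N2 and 46.25, 14.6 and 13.6 CPM on nth-1. Again the 2 sets of 6 libraries did not overlap. The hsp-16.2 gene took between 43.4% and 59.5% of the counts of the pair in the 11 libraries with at least 20 counts for it. In those libraries the 2 transcripts kept near-equal counts while their level moved. In N2 without tau at 22 °C, the lowest library, hsp-16.2 had 14 counts and hsp-16.41 had 5. Across the 12 libraries Pearson's r between them on the log2 scale was 0.987, and it was 0.978 within the 6 mutant and 0.881 within the 6 N2-background libraries; this is a description of libraries that fall in clusters.

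hsp-70, the main heat-inducible HSP70 of the worm, reached the highest CPM among the chaperones. At 22 °C it stood at 0.575 CPM in N2, 5.47 with aggregate tau and 2.23 with anti-aggregate tau, and at 9.35, 11.2 and 25.6 CPM in the matching ung-1 libraries. At 20 °C it stood at 2.72, 1.59 and 4.63 CPM on the N2 background and at 117, 57.0 and 34.9 CPM on the nth-1 background. All 6 mutant libraries lay above all 6 others, and the gap was narrowest between aggregate tau at 22 °C and ung-1 without tau. The fold was 16.3 (9.57 to 30.1), 2.04 (1.63 to 2.56) and 11.5 (8.54 to 15.8) for ung-1 without tau, with aggregate and with anti-aggregate tau. For nth-1 it was 43.2 (34.0 to 55.7), 35.8 (24.4 to 54.6) and 7.53 (5.94 to 9.67).

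Ordered by hsp-70 level, the libraries ran from N2 at 22 °C through aggregate tau at 20 °C, anti-aggregate tau at 22 °C, N2 at 20 °C, anti-aggregate tau at 20 °C and aggregate tau at 22 °C to the 3 ung-1 libraries and then the 3 nth-1 libraries. Counting intervals overlapped between the neighbours aggregate tau at 20 °C and anti-aggregate tau at 22 °C, between the latter and N2 at 20 °C, between anti-aggregate tau at 20 °C and aggregate tau at 22 °C, and between ung-1 and ung-1 with aggregate tau. The other neighbours differed beyond counting error. The spread between cultures of 1 strain was not measured.

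F44E5.4 and F44E5.5, whose products closely resemble that of hsp-70, were lower. F44E5.4 stood at 0.246, 1.06 and 0.649 CPM in N2, aggregate and anti-aggregate tau at 22 °C and at 1.69, 3.20 and 3.86 CPM in the matching ung-1 libraries. At 20 °C it stood at 0.984, 1.06 and 0.244 CPM on N2 and at 12.4, 4.65 and 3.58 CPM on nth-1. F44E5.5 followed closely, with 0.205, 1.19 and 0.928 against 2.33, 4.32 and 4.85 CPM at 22 °C, and 1.34, 0.708 and 0.548 against 14.3, 4.83 and 3.44 CPM at 20 °C. Neither gene overlapped between mutant and N2-background libraries. Folds in the 6 matched pairs ran from 3.02 to 14.7 for F44E5.4 and from 3.625 to 11.4 for F44E5.5. F44E5.4 took 41.2% to 60.0% of the counts of this pair over the 10 libraries with at least 20 counts.

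**Figure D1:**
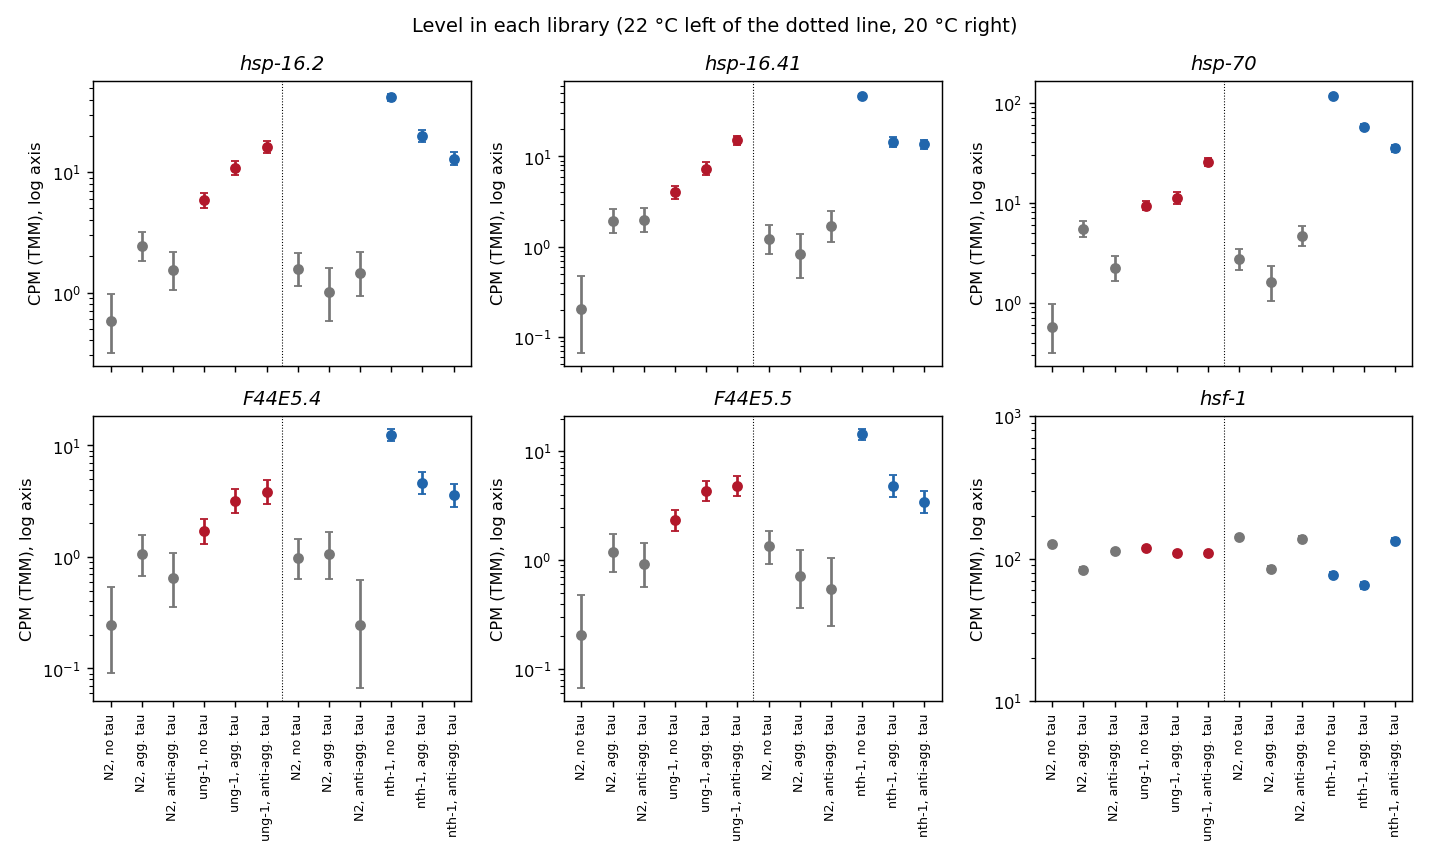
Level of 5 chaperone genes and of hsf-1 in each of the 12 libraries, in TMM-scaled CPM on a log axis, with exact 95% counting intervals (1 library per point; grey N2 background, red ung-1, blue nth-1). For the 5 chaperones every red and blue point lies above every grey point; hsf-1 shows no such split and stays between 64.95 and 142.4 CPM.

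The 4 genes of the T27E4 cluster were scarcely detected. Summed, they had 256 counts in the 6 mutant libraries, 25 to 93 per library, and 49 counts in the 6 N2-background libraries, 3 to 18 per library. hsp-16.11 had 9 to 29 counts per mutant library and 0 to 9 per N2-background library, and hsp-16.49 had 4 to 24 against 0 to 3. For these genes the scaled levels did not overlap either, although single libraries rest on a handful of reads. hsp-16.1, with 3 to 23 against 0 to 4 counts, and hsp-16.48, with 3 to 17 against 0 to 3, did overlap. Because the copies are near-identical, the sum is the safer reading. With at most 9, 3 and 3 counts in any N2-background library, hsp-16.11, hsp-16.49 and hsp-16.48 passed the filter on low counts through mutant libraries. Their place among the tested chaperones thus depends in part on the mutant levels. This holds for every range and median over that set in the mutant comparisons below.

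In all, 7 of the 10 members, and 36 of the 15245 genes tested (0.236%), had all 6 mutant libraries above all 6 N2-background libraries. Of these 7 members, hsp-16.11 and hsp-16.49 passed the filter on low counts through their mutant libraries. Their split is thus not independent of the filter and is weaker support than that of the other members. The 6 highest log2 fold changes among those 36 genes belonged to hsp-70, hsp-16.41, hsp-16.2, F44E5.4, F44E5.5 and hsp-16.49. The same 7 members kept the split with the library labelled nth-1 anti-aggregate left out, where 91 genes did so (0.597%), and without all 3 nth-1 libraries, where 155 genes did so (1.02%). Within 22 °C alone the ung-1 libraries lay above the N2-background ones for these 7 members, as for 2.13% of all genes. Within 20 °C the nth-1 libraries did so for all 9 chaperone genes, the background being 6.05%. With the anti-aggregate library labelled nth-1 left out of that set, 37.8% of all genes did so.

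Per length of transcript hsp-16.2 and hsp-16.41 reached the level of hsp-70, and the 4 genes of the T27E4 cluster stayed far below it. In nth-1 without tau, where each chaperone was highest, hsp-16.2 and hsp-16.41 both stood at 72.3 CPM per kilobase of exon and hsp-70 at 57.1. F44E5.5 stood at 6.83, F44E5.4 at 5.93 and the most abundant gene of the T27E4 cluster, hsp-16.11, at 2.75 CPM per kilobase. The median of hsf-1 was 44.1 CPM per kilobase in the mutant and 48.4 in the N2-background libraries. hsp-70 supplied 28.7% to 55.3% of the chaperone counts of a library.

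**Figure D2:**
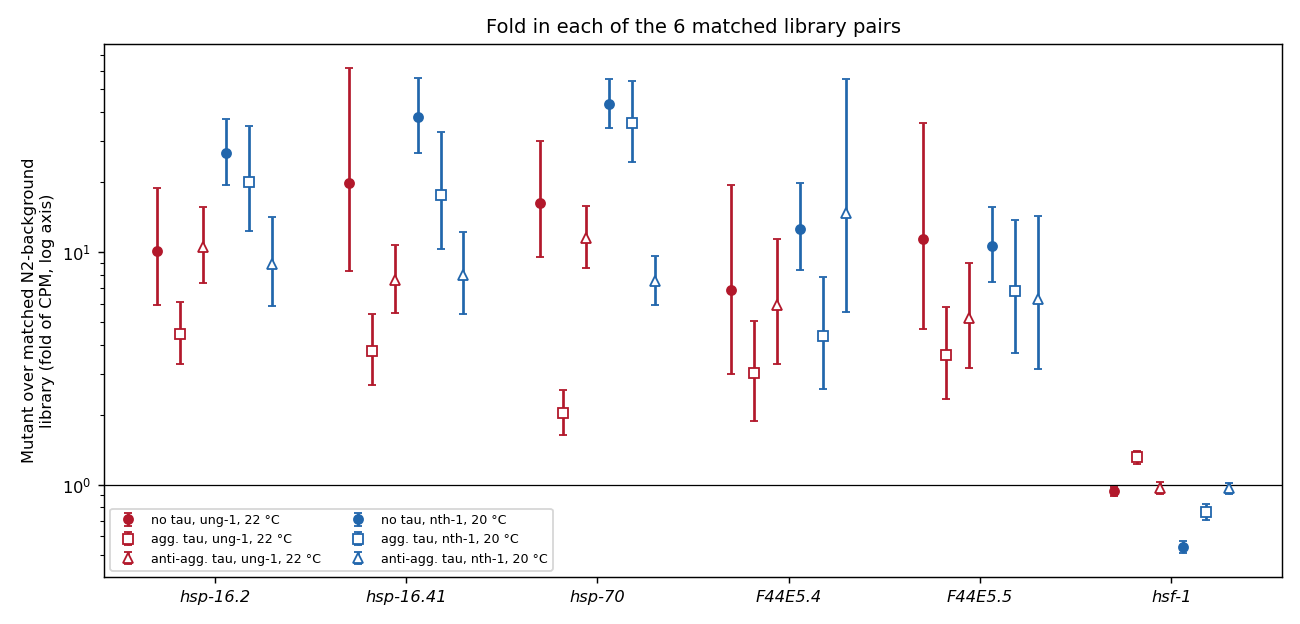
Fold of each mutant library over the N2-background library of the same tau state and temperature, for 5 chaperone genes and hsf-1, on a log axis with exact 95% counting intervals (red ung-1 at 22 °C, blue nth-1 at 20 °C; circles no tau, squares aggregate tau, triangles anti-aggregate tau). All 30 chaperone points lie above 1, from 2.04 to 43.2; those of hsf-1 lie between 0.541 and 1.31.

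Tested in a fit of all 12 libraries, with background and tau state as terms, the differences fell short of the threshold, an adjusted p under 0.05. For nth-1 over N2 at 20 °C, 3 libraries against 3, the log2 fold change was 4.67 (SE 0.91) for hsp-70, 4.45 (SE 0.93) for hsp-16.41 and 4.22 (SE 0.72) for hsp-16.2. It was 3.21 (SE 0.81) for F44E5.4 and 3.07 (SE 0.82) for F44E5.5. Each of these 5 had an adjusted p = 0.0692 by edgeR's quasi-likelihood test with Benjamini-Hochberg adjustment, and each was higher in 3 of 3 pairs. Over the 8 tested chaperones the values ran from 2.36 to 4.67 with a median of 3.14, beside a median of 0.17 over all genes. Among all genes hsp-70, hsp-16.41 and hsp-16.2 ranked 208, 318 and 456 by log2 fold change and 74, 154 and 18 by p. This fit called 0 of 15245 genes (0%), with 5575 at an unadjusted p under 0.05; 20.4% of all genes were higher at that level, as were 7 of the 8 chaperones. DESeq2 called 4210 genes, among them those 5 chaperones (adjusted p from 1.09e-07 for hsp-16.2 to 0.00297 for F44E5.5), and limma voom called 1386, among them hsp-70, hsp-16.41, hsp-16.2 and F44E5.4. With the library labelled nth-1 anti-aggregate left out, edgeR called the 5 chaperones as higher, with hsp-16.2 at 4.69 (adjusted p = 0.00821) and hsp-70 at 5.25 (adjusted p = 0.00966), and hsf-1 as lower; that fit called 5318 of 15222 genes (34.9%). Without ung-1 with aggregate tau it called 4 of the chaperones, their adjusted p-values by edgeR running from 0.0453 to 0.0483, in a fit that called 1535 genes (10.1%). Over 19 alternatives the value of hsp-16.2 ran from 3.25 to 4.69 on the log2 scale, with adjusted p from 1.09e-07 to 0.353.

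For ung-1 over N2 at 22 °C the log2 fold change was 2.86 (SE 0.67) for hsp-16.2, 2.63 (SE 0.85) for hsp-16.41, 2.47 (SE 0.84) for hsp-70, 2.30 (SE 0.80) for F44E5.5 and 2.23 (SE 0.78) for F44E5.4, each higher in 3 of 3 pairs. The 8 tested chaperones ran from 1.55 to 2.86 with a median of 2.45, beside 0.03 over all genes, and every adjusted p was 1 by edgeR's quasi-likelihood test. It called 0 of 15245 genes (0%), with 160 at an unadjusted p under 0.05; 0.262% of all genes were higher at that level, the 5 chaperones above among them. It also called 0 genes without the anti-aggregate library labelled nth-1, with 240 at an unadjusted p under 0.05. DESeq2 called 5 genes, 1 of them hsp-16.2 (adjusted p = 0.0239), and limma voom called 0. Over 19 alternatives hsp-16.2 ran from 2.29 to 3.50 on the log2 scale, with adjusted p from 0.0239 to 1. The nth-1 effect exceeded the ung-1 effect by 2.20 (SE 1.17) on the log2 scale for hsp-70 and by 1.37 (SE 0.91) for hsp-16.2; over the 8 chaperones the lowest adjusted p of this difference was 0.304 by edgeR, so the 2 effects were not shown to differ. With the anti-aggregate library labelled nth-1 left out, the difference was 2.85 (SE 1.13, edgeR adjusted p = 0.114) for hsp-70 and 1.87 (SE 0.87, edgeR adjusted p = 0.157) for hsp-16.2, in a fit that called 953 genes (6.26%) and no member.

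With both mutants pooled, 6 libraries against 6, a comparison added after the data had been seen, the log2 fold change was 3.57 (SE 0.61) for hsp-70, 3.54 (SE 0.63) for hsp-16.41 and 3.54 (SE 0.49) for hsp-16.2. It was 2.72 (SE 0.56) for F44E5.4 and 2.68 (SE 0.57) for F44E5.5, all 5 higher in 6 of 6 pairs, as were 2.81% of all genes. The unadjusted p of hsp-16.2, 4.07e-05 by edgeR's quasi-likelihood test, was the smallest of all 15245 genes, and hsp-70 and hsp-16.41 ranked 7 and 8. By log2 fold change hsp-70, hsp-16.41 and hsp-16.2 ranked 21, 23 and 24. Adjusted p-values of the 8 chaperones lay between 0.276 and 0.282 by edgeR's quasi-likelihood test, which called 0 genes (0%) and had 2528 at an unadjusted p under 0.05; 8.01% of all genes were higher at that level, as were all 8 chaperones. DESeq2 called 586 genes with the same 5 chaperones among them, and limma voom called 0 genes. With the library labelled nth-1 anti-aggregate left out, edgeR called these 5, with adjusted p-values from 0.0218 for hsp-16.2 to 0.0363 for F44E5.4, in a fit that called 935 genes (6.14%). Over 19 alternatives hsp-16.2 ran from 3.06 to 3.87 on the log2 scale, with adjusted p from 3.73e-11 to 0.634.

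**Figure D3:**
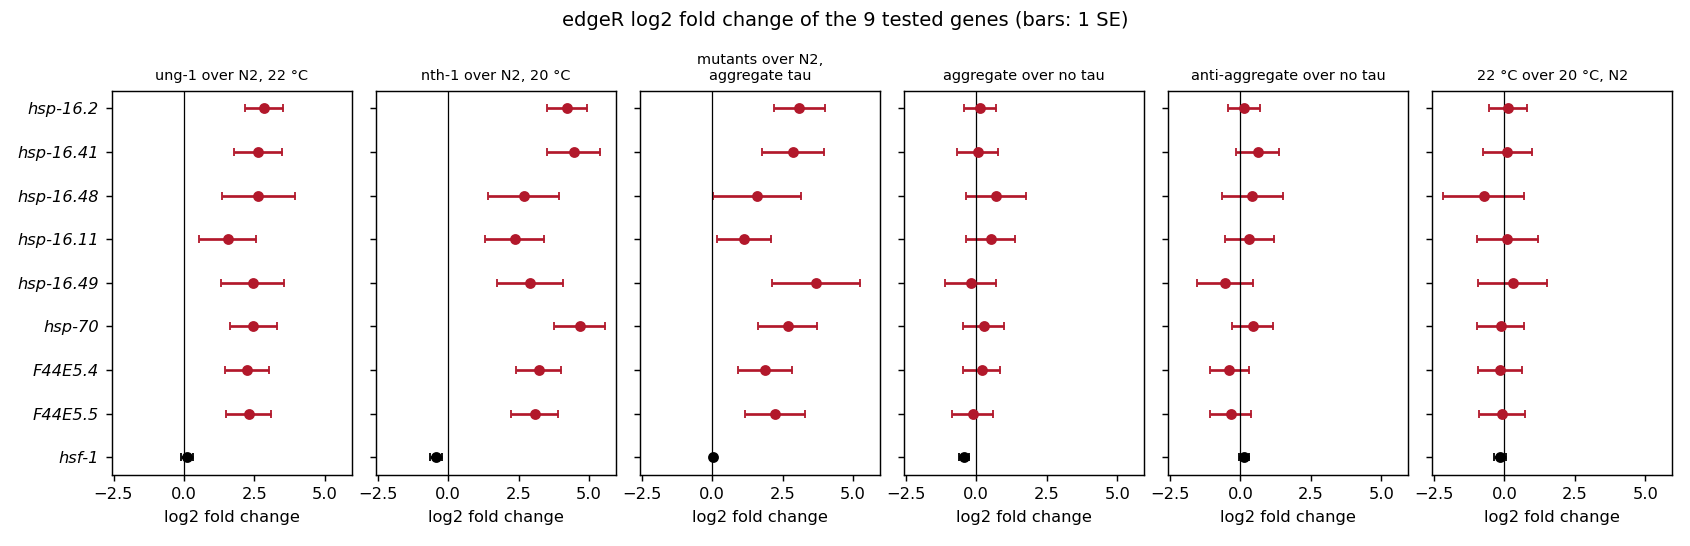
Log2 fold change with 1 SE from the edgeR fits for the 9 tested members in 6 comparisons. In the first 3 panels (ung-1, nth-1, and both mutants within the aggregate strain) the 8 chaperones lie between 1.12 and 4.67; in the last 3 (aggregate tau, anti-aggregate tau, temperature) they lie between -0.73 and 0.69. hsf-1, in black, stays between -0.43 and 0.12.

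Some other measures moved with these levels in part of the mutant libraries. The 4 body wall muscle markers summed to 5672 CPM in nth-1 and 5760 in nth-1 with aggregate tau, against 316 to 2064 CPM in the 6 N2-background libraries and 1070 CPM in the third library labelled nth-1. The 4 pharynx markers summed to 58.0 and 68.2 CPM in those first 2 libraries against 2.93 to 15.9, and the 10 sperm markers to 462 and 514 against 27.4 to 129, with spe-38 at 0 in 7 of the 12 libraries and ssp-9 in 8. The 9 oocyte and eggshell markers were lower there, at 4210 and 3412 CPM against 5214 to 8727. Hypodermis and adult cuticle markers, 6 in all, summed to 2269 and 2430 CPM there against 213 to 1734, with dpy-7 at 0 in 6 libraries. Neuron markers, 7 in all, summed to 262 and 261 CPM against 157 to 234. The 8 germline markers, at 2115 and 2084 CPM, stayed inside the N2-background range of 1489 to 2189. In the third library labelled nth-1 the pharynx, sperm, hypodermis and neuron sums were 14.3, 50.6, 715.6 and 181.6 CPM. These lay inside the N2-background ranges. Its oocyte and eggshell sum, 9080 CPM, and its germline sum, 2387 CPM, lay above theirs. In the ung-1 libraries the muscle markers summed to 670 to 1033 CPM and the sperm markers to 29.8 to 37.6 CPM, inside the N2-background range. The 7 intestine markers, yolk genes among them, summed to 139800 CPM in ung-1 with aggregate tau and 113200 with anti-aggregate tau, above the N2-background range of 33620 to 97220, and to 78650 in ung-1 without tau. The 7 markers of moulting larvae summed to 95.5 CPM in ung-1 with aggregate tau, against 26.6 to 83.6 in the N2-background libraries. The 2 aggregate libraries on N2 had muscle sums of 1704 and 2064 CPM, with hsp-16.2 at 2.43 and 1.004 CPM. The ribosomal RNA share ran from 0.103% to 1.03% in the mutant libraries and from 0.0824% to 0.351% in the others. The part of these measures in the chaperone levels was not tested.

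The question of whether loss of a glycosylase acts within the tau aggregate strain was read from a second fit with a term for mutation by tau state. There the 8 chaperones ran from 1.12 to 3.68 with a median of 2.46, beside a median of 0.00 over all genes. The log2 fold change was 3.09 (SE 0.90) for hsp-16.2, 2.86 (SE 1.1) for hsp-16.41 and 2.68 (SE 1.05) for hsp-70, with adjusted p = 0.255, 0.418 and 0.433 by edgeR's quasi-likelihood test. That test called 150 of 15245 genes (0.984%), 1 higher (0.00656%) and 149 lower (0.977%); no member was among them. DESeq2 called hsp-16.2 (adjusted p = 0.00556) and hsp-70 (adjusted p = 0.0484), both higher, among 648 genes (4.25%), 114 of them higher and 534 lower. Over 19 alternatives hsp-16.2 ran from 2.26 to 4.201 on the log2 scale, with adjusted p from 0.00556 to 0.880, and hsp-70 from 1.40 to 4.78, with adjusted p from 0.0484 to 0.951. In each of the 5 better-detected chaperones the ung-1 fold was smallest in the aggregate strain. The nth-1 fold was smallest in the aggregate strain for F44E5.4 alone, and in the anti-aggregate strain for the other 4. The interaction of glycosylase loss and aggregate tau was -1.01 (SE 1.23; 0.49 with the tau-free nth-1 library left out) for hsp-16.2 and -1.96 (SE 1.47) for hsp-70 on the log2 scale; the lowest adjusted p among the chaperones was 0.429 by edgeR, and 2 genes in all passed (0.0131%). With the anti-aggregate library labelled nth-1 left out, no member passed within the aggregate strain (477 genes, 3.13%) or in the interaction (141 genes, 0.926%).

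The chaperones had no common direction with aggregate tau over the 4 backgrounds. The 8 chaperones lay between -0.20 and 0.69 on the log2 scale for aggregate over no tau, with a median of 0.17 beside 0.26 over all genes. For anti-aggregate over no tau they lay between -0.55 and 0.61, and for aggregate over anti-aggregate between -0.56 and 0.58. None passed the test, nor did any of 15245 genes (0%) in these 3 comparisons by edgeR, with 1874, 253 and 5047 at an unadjusted p under 0.05; DESeq2 called 57, 1 and 1153 genes and limma voom 0 in each, with no member among them. In each of the 3 edgeR still called 0 genes with the anti-aggregate library labelled nth-1 left out, with 3398, 140 and 2085 at an unadjusted p under 0.05. Temperature, 22 °C over 20 °C on the N2 background, gave values between -0.73 and 0.29 for the chaperones and 0 genes called by edgeR (0%), 1147 having an unadjusted p under 0.05. On that contrast DESeq2 called 125 genes, limma voom 0, and neither a member.

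Split by temperature, the pairs went apart. At 22 °C hsp-16.2, hsp-16.41, hsp-70, F44E5.4 and F44E5.5 were each higher with tau than without it in 4 of 4 pairs, the 2 tau strains on the 2 backgrounds. At 20 °C hsp-16.2 and F44E5.5 were lower in 4 of 4 pairs and hsp-16.41, hsp-70 and F44E5.4 in 3 of 4. Aggregate over no tau, for example, was 9.52 (95% counting interval 5.47 to 17.9) for hsp-70 on N2 at 22 °C and 0.587 (0.361 to 0.928) on N2 at 20 °C. On the mutants it was 1.19 (1.01 to 1.42) for ung-1 and 0.486 (0.450 to 0.524) for nth-1. On N2 at 20 °C the intervals of the other chaperones for aggregate over no tau included 1. They were 0.339 to 1.15 for hsp-16.2, 0.333 to 1.31 for hsp-16.41, 0.555 to 2.06 for F44E5.4 and 0.2495 to 1.05 for F44E5.5. With anti-aggregate tau on N2 at 20 °C hsp-70 was higher, at 1.70 (1.21 to 2.40). F44E5.4 and F44E5.5 were lower there beyond counting error, and hsp-16.2 and hsp-16.41 were within it. N2 without tau at 22 °C was the lowest library for hsp-16.2, hsp-16.41, hsp-70 and F44E5.5, and nth-1 without tau the highest for every chaperone; both serve as the no-tau library for each tau strain, so the aggregate and the anti-aggregate values share them.

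The aggregate effect at 22 °C exceeded that at 20 °C by 2.37 (SE 0.75) on the log2 scale for hsp-16.2, by 3.09 (SE 0.99) for hsp-16.41, by 2.73 (SE 1.16) for hsp-70 and by 2.85 (SE 0.85) for F44E5.5. Over the 8 chaperones the difference ran from 1.33 to 3.64, with a median of 2.57 beside 0.09 over all genes. The adjusted p was 1 for each by edgeR's quasi-likelihood test; it called 0 genes (0%), and 39 had an unadjusted p under 0.05, 4 of the chaperones among them. For the anti-aggregate strain the difference ran from 0.66 to 3.16, the lowest adjusted p being 0.566 by edgeR, with 0 genes called (0%) and 1249 at an unadjusted p under 0.05. DESeq2 called 2 and 131 genes for the 2 differences and limma voom 0 for both, none of them a member. Of all genes, 1.33% were higher in both 22 °C pairs and lower in both 20 °C pairs for aggregate tau, and 12.8% for anti-aggregate tau. With the anti-aggregate library labelled nth-1 left out, edgeR called 0 genes for either difference, with 43 and 209 at an unadjusted p under 0.05. Both comparisons were added after the data had been seen.

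**Figure D4:**
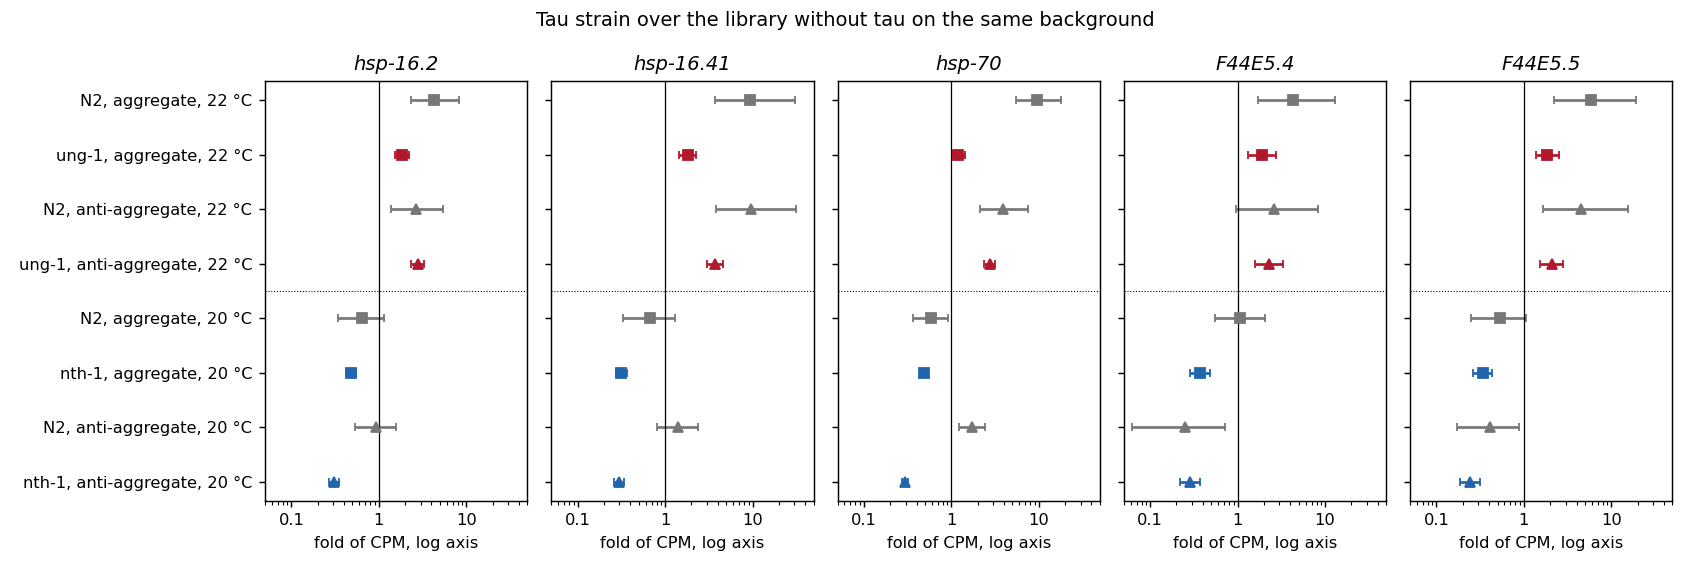
Fold of each tau library over the library without tau on the same background, for 5 chaperone genes, on a log axis with exact 95% counting intervals (squares aggregate, triangles anti-aggregate; grey N2, red ung-1, blue nth-1). Above the dotted line, at 22 °C, all 20 points lie above 1; below it, at 20 °C, the nth-1 points lie between 0.241 and 0.486 and the N2 points between 0.248 and 1.70.

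hsf-1 was read at 127, 83.6 and 113 CPM in N2, aggregate and anti-aggregate tau at 22 °C. In ung-1 without tau its 95% counting interval was 115.5 to 122.6 CPM, and with aggregate and anti-aggregate tau ung-1 stood at 109.6 and 109.0 CPM. At 20 °C it stood at 142.4, 85.1 and 138.5 CPM on N2 and at 77.0, 64.95 and 134 CPM on nth-1. The aggregate libraries on N2 and the first 2 nth-1 libraries were the low ones, and the mutant and N2-background ranges overlapped. The log2 fold change was 0.09 (SE 0.21, adjusted p = 1) for ung-1 over N2 and -0.42 (SE 0.22, adjusted p = 0.184) for nth-1 over N2 by edgeR's quasi-likelihood test. When the library labelled nth-1 anti-aggregate was dropped, the value for nth-1 was -0.71 (edgeR adjusted p = 0.0210); over 19 alternatives the adjusted p ran from there to 0.728. The sign for ung-1 turned with total counts and without ung-1 with aggregate tau.

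With aggregate tau hsf-1 was lower than without tau on all 4 backgrounds, at folds of 0.657 on N2 and 0.921 on ung-1 at 22 °C, and 0.598 on N2 and 0.843 on nth-1 at 20 °C. With anti-aggregate tau hsf-1 stood at folds of 0.886 on N2 and 0.916 on ung-1 at 22 °C. At 20 °C hsf-1 then stood at 0.9725 on N2 and at 1.74 in the library labelled nth-1. Over the 4 backgrounds it was -0.43 (SE 0.19, adjusted p = 0.363) on the log2 scale for aggregate over no tau and -0.55 (SE 0.19, adjusted p = 0.137) for aggregate over anti-aggregate tau by edgeR's quasi-likelihood test. For aggregate over no tau on the N2 backgrounds hsf-1 was -0.67 (SE 0.25) on the log2 scale, with adjusted p = 0.131 by edgeR's quasi-likelihood test, in a contrast that called 230 of 15245 genes (1.51%), 227 higher (1.49%) and 3 lower (0.0197%). It passed, at -0.55 and -0.67, when ung-1 with anti-aggregate tau (edgeR adjusted p = 0.0170) or the library labelled nth-1 anti-aggregate (edgeR adjusted p = 0.0144) was left out of the fit; those fits called 4762 (31.3%) and 5515 (36.2%) of all genes. Over 19 alternatives it ran from -0.77 to -0.47, with adjusted p from 0.0144 to 0.612. The 8 chaperones in that contrast ran from -1.03 to 2.76, with a median of 0.95 beside 0.46 over all genes, and none passed.

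The relation of hsf-1 to the chaperones across libraries is given within each set of 6, since mutant and N2-background libraries form separate clusters. Within the 6 mutant libraries Pearson's r with the 9 chaperones on the log2 scale ran from -0.69 to -0.49 and Spearman's rho from -0.77 to -0.43. With the 2 libraries farthest from the median of hsf-1 left out, r ran from -0.76 to 0.47. It was -0.525 or lower for hsp-16.1, hsp-16.48, hsp-16.49 and F44E5.5, and -0.11 or higher for the other 5, whose relation rests on those libraries. Within the 6 N2-background libraries r ran from -0.63 to 0.60 and rho from -0.60 to 0.31. None of the 18 relations passed: the lowest p was 0.1125 for r and 0.1028 for rho by two-sided exact permutation tests, with adjusted p of 0.456 and 0.463.

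The constitutive and compartment chaperones showed no such separation between the 6 mutant and the 6 N2-background libraries. hsp-1, the constitutive cytosolic HSP70 on which the worm relies without stress, stood at 2368 to 4920 CPM. hsp-90, the cytosolic HSP90, stood at 2919 to 5827 CPM. For both, mutant and N2-background libraries overlapped over the 12 libraries. Within 20 °C alone hsp-1 did not overlap. It stood at 3946, 4230 and 4920 CPM in nth-1 without tau, with aggregate and with anti-aggregate tau. The matching N2-background libraries held 3382, 2590 and 3563 CPM. Within 20 °C hsp-3, hsp-6 and hsp-110 were also higher in every nth-1 library, as were 6.05% of all genes, while hsp-90 overlapped. Of the chaperone genes outside the 10 members, in 5 lists chosen with earlier results of these data known, none passed in the ung-1, the nth-1 or the pooled mutant comparison over all 12 libraries (0% of all genes), and unc-23 alone had all 6 mutant libraries above the others.

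For nth-1 over N2 the 10 tested of 11 other small heat shock protein genes had a median of 1.25 on the log2 scale, beside 0.17 over all genes, with hsp-12.2 at 1.74 (SE 0.41) and hsp-25 at 1.14 (SE 0.36). For ung-1 their median was 0.16 beside 0.03, with hsp-12.1 at 0.95 and hsp-17 at 0.79. The 9 other HSP70 and HSP110 genes had medians of 0.47 and 0.15; in nth-1 the endoplasmic reticulum HSP70 gene hsp-3 was at 0.96 (SE 0.22) and hsp-110, for a nucleotide exchange factor of HSP70, at 0.54 (SE 0.17). In ung-1 hsp-3 was at 0.25 and hsp-6, for the mitochondrial HSP70, at 0.23. The 16 genes of HSP90 and cytosolic co-chaperones had medians of 0.07 and 0.11, with chn-1, for the CHIP ubiquitin ligase, at -0.87 (SE 0.22) in nth-1 and dnj-13, for a J-domain partner of HSP70, at 0.28 in ung-1.

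Among 9 genes listed as HSF-1 regulators, a list that also held ubq-1, ubq-2 and aip-1, the medians were -0.14 for nth-1 and 0.10 for ung-1. hsb-1, whose product binds and restrains HSF-1, was at -0.72 (SE 0.19) in nth-1, and sir-2.1, for a sirtuin deacetylase, at -0.61 (SE 0.20). Of the 9 genes, 3 went the other way in nth-1, and the values ran from -0.80 to 0.86. One of these was hpk-1, at 52.6, 54.5 and 20.8 CPM in nth-1 without tau, with aggregate and with anti-aggregate tau. The matching N2-background libraries held 16.9, 35.3 and 18.5 CPM. The 14 genes of the cytosolic chaperonin and prefoldin, which fold actin and tubulin, had medians of -0.01 and 0.02, with pfd-1 at -0.70 (SE 0.18) and cct-7 at 0.46 (SE 0.15) in nth-1. The lowest adjusted p in any of these 5 lists was 0.0692 for nth-1 and 1 for ung-1 by edgeR's quasi-likelihood test.

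With the anti-aggregate library labelled nth-1 left out, edgeR called members of each list for nth-1, in the fit that called 34.9% of all genes and had a median of 0.21. Of 9 tested other small heat shock protein genes 5 were called higher and 1 lower, with hsp-12.2 at 1.998 (SE 0.41) and hsp-25 at 1.51 (SE 0.29). Of the 9 HSP70 and HSP110 genes 1 was higher, hsp-3 at 1.18 (SE 0.19), and 1 lower. Of the 16 HSP90 and co-chaperone genes 2 were higher and 3 lower. For the 9 genes listed as HSF-1 regulators these counts were 1 and 3, and for the 14 chaperonin and prefoldin genes 0 and 2. The regulator called higher was hpk-1 at 1.21 (SE 0.27), the largest change of its list, and ddl-1 was called lower at -0.98 (SE 0.30). hsb-1 was then at -0.88 (SE 0.21), sir-2.1 at -0.80 (SE 0.21), chn-1 at -1.13 (SE 0.21) and pfd-1 at -0.78 (SE 0.20), all called lower, while hsp-110 at 0.48 and cct-7 at 0.39 were not called. For the pooled mutants that fit called 6.14% of all genes, and among the lists hsp-25, hsp-17, hsp-3 and unc-23, all higher.

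The gene whose profile over the 12 libraries was most like that of the 8 tested chaperones was unc-23 (H14N18.1; V, 8936359 to 8939684), with Pearson's r of 0.916 and Spearman's rho of 0.881. Likeness was r with the mean log2 profile of the chaperones, each centred but not scaled, so those with the widest range weigh most. It was taken over the 5850 genes that average 5 CPM or more and carry a gene name beyond their clone identifier. The libraries share their clusters, so likeness is a description. UNC-23 is a BAG-domain co-chaperone, which works with HSP70 and is needed to keep body wall muscle attached. It stood at 15.1, 26.3 and 18.55 CPM in N2, aggregate and anti-aggregate tau at 22 °C and at 30.6, 36.9 and 38.4 CPM in the matching ung-1 libraries. At 20 °C it stood at 12.05, 22.1 and 14.01 CPM on N2 and at 103, 102 and 35.1 CPM on nth-1. Its log2 fold change was 2.31 (SE 0.37, adjusted p = 0.0692) for nth-1 and 0.87 (SE 0.35, adjusted p = 1) for ung-1 by edgeR's quasi-likelihood test, higher in 6 of 6 pairs. With the anti-aggregate library labelled nth-1 left out, unc-23 was at 2.72 (SE 0.24, edgeR adjusted p = 0.00528) for nth-1.

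**Figure D5:**
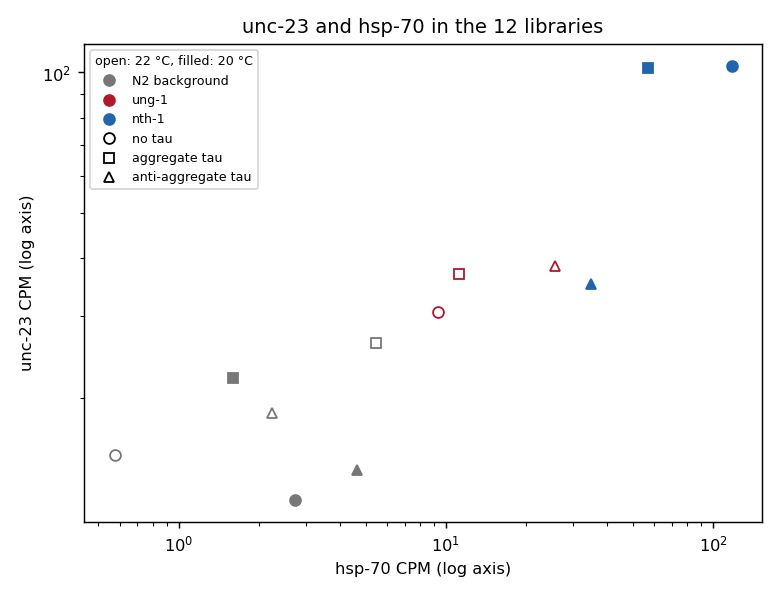
Level of unc-23 against that of hsp-70 in the 12 libraries, in TMM-scaled CPM on log axes (grey N2 background, red ung-1, blue nth-1; circles no tau, squares aggregate, triangles anti-aggregate; open 22 °C, filled 20 °C). The 6 mutant libraries lie at 30.6 CPM of unc-23 or more and the N2-background libraries at 26.3 or less.

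The next genes by likeness had r of 0.854 to 0.905. They were klc-2, for a kinesin light chain; gdh-1, fum-1, cts-1, dlst-1 and gldc-1, for enzymes of mitochondrial metabolism; rho-1, for a small GTPase; rme-1, for endocytic recycling; gck-3, for a kinase; ldp-1; and daf-16, for the FOXO transcription factor of insulin signalling. Their levels spread far less than those of the chaperones. daf-16, for example, ran from 126 to 154 CPM in the N2-background and from 151 to 191.5 CPM in the mutant libraries, and cts-1, for citrate synthase, from 515 to 660 and from 613 to 855 CPM.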

How the data were processed

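Counts of reads per gene, whole numbers and not normalised, were deposited by the authors for 12 whole-worm libraries. Per the submitters' processing notes the authors used HISAT2, the WBcel235 build and edgeR 3.22.5. For the counting program, strand setting and treatment of multi-mapped reads the sources used here give nothing. Multi-mapped reads could shift counts between hsp-16.1 and hsp-16.11, hsp-16.48 and hsp-16.49, and F44E5.4 and F44E5.5. Names and coordinates came from the Ensembl 115 annotation, which matched 46180 of 46589 identifiers. It names T27E4.2 hsp-16.1 and T27E4.9 hsp-16.48; here they are hsp-16.11 and hsp-16.49.

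The test on these counts was that of edgeR 4.0.16 under R 4.3.3 (quasi-likelihood test, TMM, the default filter on low counts, Benjamini-Hochberg adjustment over all 15245 genes). One fit had terms for background and tau state (6 residual degrees of freedom), and 2 others added tau state by glycosylase loss or by temperature (4). With 1 library per combination, p-values rest on the residual of these fits, and nothing shows how far replicate cultures would differ. Alternatives were DESeq2 1.42.0, limma 3.58.1 voom, other scalings and filters, libraries of 1 temperature, and leaving out each library. For the pooled mutant comparison, simulated counts of 14838 genes, 200 of them changed, gave back 25% of 2-fold and 47% of 4-fold changes. Other simulated comparisons gave back less. The shares were 1% and 38% for ung-1, 7% and 38% for nth-1, and 14% and 40% for aggregate over no tau. Within the aggregate strain they were 0% and 22%.

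All members were named; from each pathway list the 2 genes with the smallest p where none passed, and the 12 genes most like the members. Members and lists were chosen with earlier results of these data known. Genes named outside this rule (hsp-1, hsp-90, uggt-2, hpk-1, ddl-1) were chosen after their values were seen.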

Additional observations from a re-analysis of the deposited data

Results flagged for a closer look

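In several members the tau pairs at 22 °C all moved one way and those at 20 °C the other, or the pairs on N2 and on mutants did so. The aggregate effect at 22 °C minus that at 20 °C, on the log2 scale, was 2.37 for hsp-16.2, 3.09 for hsp-16.41, 2.73 for hsp-70 and 2.85 for F44E5.5 (edgeR adjusted p = 1 for each). The same difference for the anti-aggregate strain was 2.35 for hsp-16.2, 3.07 for F44E5.4 and 3.16 for F44E5.5 (edgeR adjusted p = 0.566 for each). These 7 values rest on the same no-tau libraries. For hsp-16.11 both tau strains were higher than no tau on N2 and lower on the mutants. Its interaction with glycosylase loss was -3.25 for aggregate tau (edgeR adjusted p = 0.429) and -3.40 for anti-aggregate tau (edgeR adjusted p = 0.786), from 0 to 29 counts per library.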

How the results depend on the processing

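Chaperone log2 fold changes for ung-1, nth-1, both pooled, and both within the aggregate strain kept their sign under every alternative run except hsp-16.48 within the aggregate strain, at -0.64 without aggregate tau at 20 °C (up to 4.29 with another library left out). For hsf-1 in ung-1 the sign turned, to -0.0071 with total counts and to -0.12 without ung-1 with aggregate tau (up to 0.21 with 1 other library left out), and for the interaction of hsp-16.2 with aggregate tau the leave-one-out values ran from -2.13 to 0.49. The count of members called, 0 in each comparison as reported, moved as follows. For nth-1 it was 4 with total counts (9.18% of all genes called), 3 with a stricter filter (17.3%), 5 with DESeq2 (27.6%), 4 with limma voom (9.09%) and 0 to 6 with 1 library left out (up to 34.9%). For the pooled mutants it was 5 with DESeq2 (3.84%) and 0 to 5 with 1 library left out (6.14% at 5), for ung-1 it was 1 with DESeq2 (0.0328%), and within the aggregate strain 2 with DESeq2 (4.25%). For aggregate over no tau on N2 it was 0 to 1 with 1 library left out (31.3% and 36.2% at 1), and for aggregate over anti-aggregate tau 1 (hsf-1, -1.03) with 20 °C libraries only (4507 genes, 31.4%). None of 9 relations of hsf-1 to a chaperone over all 12 libraries passed, and 9 did with total counts. Members with 6 mutant libraries above the rest numbered 7 to 8 under all 16 alternatives; genes in all numbered 15 with total counts and up to 463 without the ung-1 libraries. Total counts moved the median of all genes from 0.00 to -0.23 within the aggregate strain. Counts of genes called over the whole table moved by more than 1.5 times in 72 of 272 fits, DESeq2 and limma voom calling 3304 and 778 against 230 for aggregate tau on N2, 648 and 295 against 150 within the aggregate strain, and 385 and 28 against 2 for the interaction. No paired analysis was possible because each group has 1 library and the labels carry no replicate numbers to block on; libraries were matched only by tau state, a term of the reported fit. Depth limits the T27E4 genes, at 0 to 29 counts per library. The cause of these shifts was not tested.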
